A study of Mus musculus with 6 samples.

Results

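Among 68400 cell barcodes from mouse testes, 4398 held few unique molecular identifiers (UMIs, each counting 1 captured RNA molecule) and yet carried transcripts of very long genes together with meiotic transcripts. They were chosen by a rule on the counts themselves. A barcode had to hold at least 500 and fewer than 2500 UMIs and less than 20% mitochondrial UMIs. It also had to hold at least 3 UMIs, and at least 0.2% of its UMIs, from the summed counts of 7 genes (Gm11867, Ttn, Atrnl1, Airn, Xirp2, Ppfia2 and C730002L08Rik). The last condition was less than 1.5% of UMIs from 6 transcripts of elongating spermatids (Smcp, Oaz3, Odf1, Dbil5, Cabs1 and Lelp1). They are called long-transcript barcodes here, and a level for them is always in CPM, the gene's UMIs scaled to the total UMIs summed over the long-transcript barcodes of a mouse.

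The 6 libraries came from male C57BL/6J mice, 3 given nicotine and 3 controls. The nicotine mice drank water containing 200 µg/mL nicotine for 8 weeks, starting at 3 weeks of age, and the controls drank plain water. All mice were 11 weeks old at sampling, each library was made from the dissociated testes of 1 mouse with the 10x 3' chemistry (version 3). Nicotine mice gave 757, 895 and 841 long-transcript barcodes, and control mice gave 623, 666 and 616.

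In meiosis the paired chromosomes of a spermatocyte are held together by the synaptonemal complex, whose transverse filaments contain Sycp1. Hormad1 marks chromosome axes that have not yet paired. During the pachytene stage the X and Y chromosomes are silenced in the sex body and the autosomes are transcribed at a high rate, with many transcripts stored for use after the divisions. A gene's span in the annotation, from its first to its last base, includes introns, which are copied into the primary transcript and removed in the nucleus. The labels do not record whether intronic reads were counted, so a UMI assigned to a long gene may come from an exon or an intron.

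The libraries held 10823 to 12317 barcodes of at least 500 UMIs. Nicotine libraries held 67853893 to 73596886 UMIs and control libraries 75923816 to 88329607. Summed over long-transcript barcodes the depth was 946421 to 1394212 UMIs a mouse. Of the 4398 barcodes, 81 had a sequence that also occurred in another library, and 2 of those matched another long-transcript barcode. No doublet caller was run, and 311 of them (7.07%) held 3 or more UMIs of somatic marker genes.

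Other kinds of barcode served for comparison, each defined with results of these data in view. Full-depth barcodes had 10000 or more UMIs and at least 5 UMIs of the 7 genes, under the same mitochondrial and spermatid limits (3096). Synaptonemal barcodes had 2500 or more UMIs, under the same mitochondrial and spermatid limits (2105). They were chosen on a list of 10 synaptonemal complex and axis genes, of which 9 were found under their listed symbols. The other barcodes under 2500 UMIs, which had the mitochondrial limit but no spermatid limit, numbered 29632. Their levels of spermatid transcripts were thus not restricted by the choice, as they were in long-transcript barcodes. Leydig barcodes, chosen on 5 Leydig cell genes with Insl3 and Star among them, numbered 336. Deeper counterparts met every condition of the rule on genes but had 2500 or more UMIs (544). Because the kinds were separated on counts of the same RNA, differences between them are given as values with no test.

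Long-transcript barcodes held fewer UMIs of the 7 genes of the rule than full-depth barcodes, but at a far higher share. The mean was 7.0 ± 0.349 UMIs of these genes in a long-transcript barcode of median 1487 UMIs, and 10.2 ± 0.875 in a full-depth barcode of median 19560 UMIs (SD over 6 mice, as for all values between kinds of barcode). The full-depth mean includes the condition of at least 5 such UMIs. As a share of UMIs the 7 genes gave 0.457% in long-transcript and 0.0379% in full-depth barcodes. The deeper counterparts, which met the same gene conditions, held 17.1 ± 1.87 such UMIs at a median of 3179 UMIs, a share of 0.458%. Ttn, which encodes the giant sarcomere protein titin and spans 279 kb (chr2:76703980-76982547, GRCm38), stood at 1230 ± 77.4 CPM in long-transcript and 82.3 ± 9.58 CPM in full-depth barcodes. Gm11867, a noncoding transcript of 484 kb span (chr4:18407349-18891842), stood at 602 ± 48.8 and 32.5 ± 4.62 CPM. Xirp2, a muscle actin-binding protein, stood at 287 and 19.8 CPM, and Airn, the imprinted noncoding RNA that overlaps Igf2r, at 288 and 13.1 CPM. The remaining genes of the rule were Ppfia2 (a synaptic scaffold protein) at 1013 and 96.0 CPM, Atrnl1 (a membrane protein related to attractin) at 666 and 75.1 CPM, and the noncoding C730002L08Rik at 480 and 59.7 CPM. These values describe the selection, since the rule used them.

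**Figure D1:**
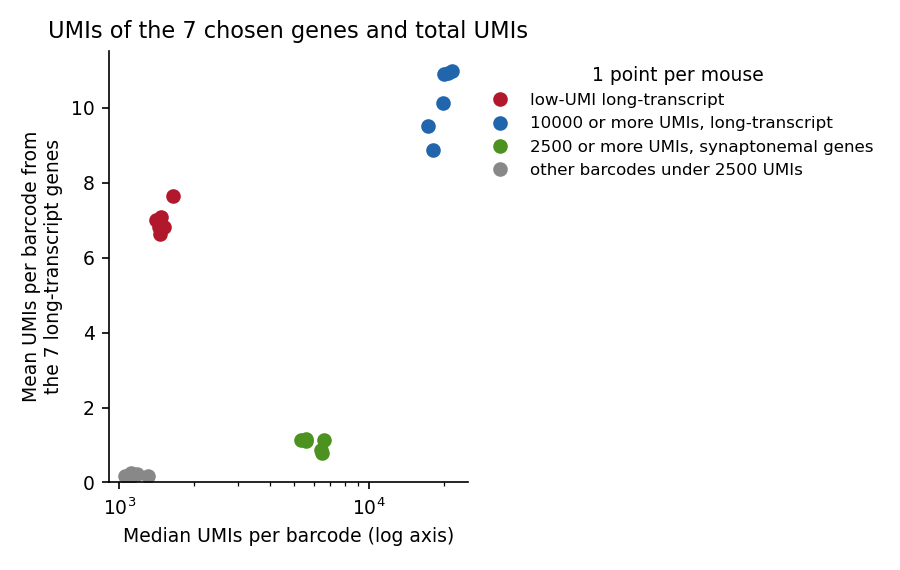
Mean UMIs per barcode from the 7 genes of the rule (vertical axis) against the median UMIs per barcode (horizontal, log axis), 1 point per mouse and kind of barcode. Long-transcript barcodes averaged 7.0 such UMIs at a median of 1487 UMIs, full-depth barcodes 10.2 at 19560, and other barcodes under 2500 UMIs 0.20 at 1146. The deeper counterparts are not drawn.

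The enrichment reached far beyond the 7 genes, and it followed the span of the gene. Without the 7 genes, genes spanning 100 kb or more gave 21.0 ± 1.02% of the UMIs of long-transcript barcodes, 9.25 ± 0.262% in full-depth barcodes, 10.8 ± 0.856% in synaptonemal barcodes and 9.12 ± 0.421% in the other barcodes under 2500 UMIs. In the 6 mice the share lay between 19.7% and 22.3% for long-transcript barcodes, and no mouse's value for those other 3 kinds exceeded 11.9%. The deeper counterparts, chosen on the same genes, had more still, at 26.3 ± 1.05%. Genes of 300 kb and over gave 6.74% of UMIs in long-transcript and 2.03% in full-depth barcodes, and genes under 10 kb gave 28.9% and 39.1%. Genes annotated as long noncoding RNA gave 10.4% of UMIs in long-transcript barcodes and 7.39% in full-depth ones, while cytosolic ribosomal protein genes, which are short, gave 3.11% and 4.32%.

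**Figure D2:**
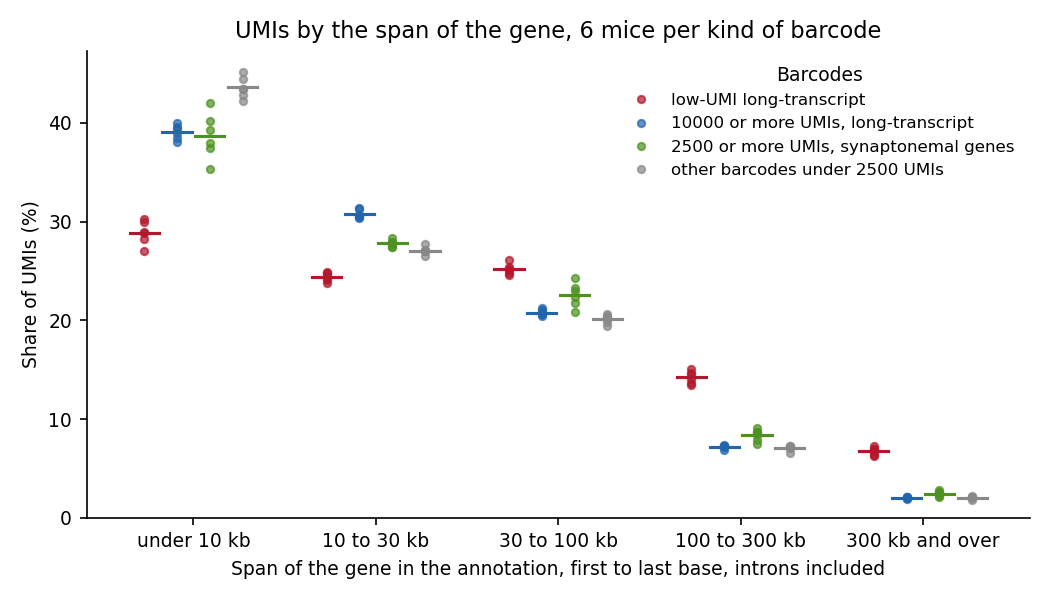
Share of UMIs (vertical axis, %) from genes of 5 span classes (horizontal axis) in 4 kinds of barcode, without the genes of the rule; points are mice and bars their mean. Long-transcript barcodes lie highest in every class from 30 kb upward, at 14.3% for 100 to 300 kb and 6.74% for 300 kb and over, and lowest under 10 kb, at 28.9%.

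Gene by gene the shift followed span as well. Against full-depth barcodes, the median log2 ratio of CPM was -0.46 for 2140 genes under 10 kb, -0.03 for 10 to 30 kb, 0.63 for 30 to 100 kb, 1.25 for 100 to 300 kb and 1.72 for the 356 genes of 300 kb and over, of which 97.8% were higher in long-transcript barcodes. Against the other barcodes under 2500 UMIs the same medians were -0.28, 0.01, 0.56, 1.13 and 1.81, and against synaptonemal barcodes -0.32, -0.17, 0.07, 0.76 and 2.08. Against the deeper counterparts they ran the other way, at 0.27, 0.10, -0.17, -0.30 and -0.37. Across the 8440 genes at 20 CPM or more in either kind, the ratio to full-depth barcodes had a Spearman correlation of 0.468 with span and 0.320 with exonic length. The correlations were 0.426 and 0.220 for the ratio to other low-UMI barcodes, and 0.245 and 0.0038 for the ratio to synaptonemal barcodes. They describe genes that share libraries and are not independent.

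Several very long genes stood at high levels in these barcodes. Spag16, a protein of the axoneme's central pair that spans 898 kb, stood at 2831, 2568 and 2588 CPM in the nicotine mice and at 2510, 2795 and 2478 CPM in the control mice, with a mean 5.42-fold that of full-depth barcodes. Agbl4, a carboxypeptidase that shortens glutamate side chains on tubulin and spans 1267 kb, was 5.69-fold the full-depth level, at 2581 ± 174 and 453 ± 24.9 CPM. Fgf14, an intracellular fibroblast growth factor homologue best known in neurons, with a span of 699 kb, was 10.3-fold, at 3354 ± 194 and 326 ± 32.0 CPM. The noncoding Gm10754, of 286 kb, was 19.5-fold, at 1450 and 74.5 CPM. It had 1420, 1361 and 1258 CPM in nicotine mice and 1531, 1640 and 1491 CPM in control mice (log2 fold change -0.19, edgeR adjusted p 0.638). These genes were singled out after their levels were seen.

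The 15 genes with the highest ratio to full-depth barcodes, taken among genes at 50 CPM or more that were higher in all 6 mice, ran from 29.8-fold to 78.2-fold. Only 3 of them spanned 100 kb or more and 4 were noncoding. A run of 3 neighbours on chromosome 13 was among them, all members of the small leucine-rich matrix protein family known from connective tissue: Ecm2 (chr13:49504810-49532789) at 134 ± 17.9 CPM in long-transcript and 3.08 ± 0.646 CPM in full-depth barcodes, Aspn at 97.9 and 2.59 CPM, and Ogn at 51.1 and 1.62 CPM. Omd, which lies between Aspn and Ogn, stood at 41.4 and 1.42 CPM. Ecm2 was less low elsewhere, at 41.9 CPM in other low-UMI and 21.1 CPM in synaptonemal barcodes. All 4 lie on the plus strand inside the span of Cenpp (chr13:49464023-49652785), a centromere protein gene of 189 kb on the minus strand, which stood at 264 ± 41.7 CPM in long-transcript and 75.4 ± 6.43 CPM in full-depth barcodes. Fgf7, a growth factor known from mesenchyme, had 224, 244 and 245 CPM in nicotine mice and 267, 320 and 291 CPM in control mice, 29.9-fold the full-depth mean. It lies inside Fam227b, on the other strand, which stood at 375 and 146 CPM.

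That arrangement was counted over all genes after these cases had been seen. Of 249 genes spanning less than 100 kb that were more than 8-fold higher in long-transcript than in full-depth barcodes, 57 (22.9%) lay wholly inside a gene of 100 kb or more on the other strand that itself reached 50 CPM in long-transcript barcodes. Of all 7043 genes of that span compared, 2.16% did. Genes inside such a host had a median log2 ratio of 1.24 (152 genes). Genes inside a host under 50 CPM had -0.74 (61 genes), and genes inside no such gene had 0.01 (6830 genes). The share inside such a host was smaller in the other comparisons, at 9.64% of 166 genes over 8-fold against other low-UMI barcodes and 9.19% of 446 against synaptonemal barcodes. Genes inside a host under 50 CPM had a median of -0.19 against other low-UMI barcodes, where genes inside none had 0.02. Against synaptonemal barcodes that order was turned round, at 0.27 and -0.16. The host's level was taken from the same barcodes, so these are descriptions. Whether counting used strand is not recorded in the labels, and without strand a transcript of the inner gene cannot be told apart from RNA of its host.

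Other genes near the top were the neuropeptide Nmu, the odorant receptor gene Olfr1508 and the adenylate cyclase Adcy2. Olfr1508 stood at 71.3 CPM in long-transcript barcodes, 2.31 CPM in full-depth, 4.03 CPM in other low-UMI and 0.504 CPM in synaptonemal barcodes. At the low end, the 15 genes furthest below full-depth barcodes had ratios between 0.174 and 0.259, a median span of 3.57 kb and no noncoding member. They included Tssk4, a kinase of spermatids (49.7 CPM), Spata31 (30.2 CPM) and the X-linked spermatid gene Cypt1 (51.2 CPM).

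Against the deeper counterparts differences were smaller, the 15 highest and 15 lowest ratios lying between 2.02 and 2.23 and between 0.416 and 0.50. Higher in long-transcript barcodes were the cell-cycle kinase Cdk1 (78.3 CPM, against 37.9 in the deeper counterparts) and Ndufa12, a subunit of respiratory complex I (356 and 172 CPM). Of the 15 lowest 10 were noncoding, with the nuclear RNA Malat1 at 773 and 1591 CPM among them. Against the other low-UMI barcodes, 11 of the 15 highest were noncoding, such as Rmst at 133 CPM in long-transcript and 7.53 CPM in other low-UMI barcodes. The lowest there, where the other barcodes had no spermatid limit, included the spermatid kinase Tssk6 (117 and 1764 CPM).

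The meiotic label was checked on genes the rule did not use. After each barcode was thinned to 500 UMIs, Sycp1 was detected in 10.7% of long-transcript barcodes (95% exact interval 9.81% to 11.7%, counting error only), 5.07% of full-depth barcodes, 19.5% of synaptonemal barcodes and 4.01% of the other low-UMI barcodes. Leydig barcodes, which should lack it, gave 0.893%. Unthinned, at a median of 1487 UMIs, Sycp1 was seen in 27.0% of long-transcript barcodes. Hormad1 was detected in 6.05%, 2.33%, 15.7% and 5.35% of the same 4 kinds and in 1.19% of Leydig barcodes, so long-transcript and other low-UMI barcodes were close for this gene. Sycp1 itself spans 118 kb, and its mean level was 2.44-fold that of other low-UMI barcodes, near the median of genes of 100 to 300 kb in the same comparison (log2 ratio 1.13). Some shorter meiotic genes showed no such excess. Others did, among them Tex15 and Brca1, given below, and the summed recombination list, at 874 CPM in long-transcript and 451 CPM in other low-UMI barcodes. Sycp3 (13.7 kb) stood at 152 CPM in long-transcript and 181 CPM in other low-UMI barcodes, Piwil1 (53.0 kb) at 119 and 152 CPM, and Hormad1 (28.0 kb) at 124 and 113 CPM. X-linked genes gave 0.773 ± 0.0410% of UMIs in long-transcript barcodes and 2.55 ± 0.0879% in Leydig barcodes, but the share was also low in full-depth (0.862%), synaptonemal (0.650%) and other low-UMI barcodes (0.866%).

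The synaptonemal list as a whole did not set these barcodes apart. The 9 of its 10 genes found under their listed symbols summed to 1286 ± 49.7 CPM in long-transcript barcodes and 1264 ± 68.9 in full-depth barcodes. Other low-UMI barcodes, chosen without a spermatid limit, had 2130 ± 99.1 CPM. The barcodes with 0, 1 and 2 UMIs of the 7 genes of the rule, described below, had 1458, 1333 and 1324 CPM. Syce2, a central element protein, made much of the sum in other low-UMI barcodes, at 107 CPM in long-transcript and 1097 CPM in other low-UMI barcodes. The rest of the list summed higher in long-transcript than in other low-UMI barcodes. Choosing low-UMI barcodes on this list in place of the 7 genes gave 4852 barcodes, of which 889 were shared, 18.3% of that set and 20.2% of the long-transcript barcodes. For scale, 4398 barcodes were long-transcript and 29632 were other barcodes under 2500 UMIs. The summed list separates the long-transcript barcodes from Leydig cells. Its sum does not set them above the other low-UMI barcodes, a result that turns on Syce2. Other meiotic lists went in both directions and are given below. The barcodes are therefore called by their long transcripts.

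Lists of meiotic stages differed in how the long-transcript barcodes compared with the other kinds. The 12 pachytene genes summed to 8611 ± 421 CPM in long-transcript barcodes, below 13442 in full-depth, 10059 in synaptonemal and 10950 in other low-UMI barcodes. The 12 round spermatid genes summed to 2058 CPM in long-transcript barcodes, below 4176 in full-depth, 2126 in synaptonemal and 3495 in other low-UMI barcodes. The 28 recombination genes were at 874 ± 54.4 CPM, above 420 in full-depth and 451 in other low-UMI barcodes and below 1091 in synaptonemal barcodes. The 13 checkpoint and sex body genes took the same order, at 524, 206, 348 and 987 CPM.

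Single stage genes are given as examples picked after their levels were seen. Piwil1, the pachytene piRNA-binding protein, stood at 119 CPM in long-transcript, 35.7 in full-depth and 563 in synaptonemal barcodes, and Atr, the checkpoint kinase of the sex body, at 152, 44.7 and 283 CPM. Ccna1, the meiotic cyclin A1, stood at 91.6, 196 and 42.2 CPM in the same 3 kinds. Pou5f2, a pachytene transcription factor, stood at 98.8, 15.9 and 32.7 CPM, and at 98.7 CPM in other low-UMI barcodes. Syce1 and Syce3, of the synaptonemal central element, were lowest of these 3 kinds in long-transcript barcodes, at 218 CPM where full-depth barcodes had 424 and synaptonemal barcodes 343, and at 198 where they had 345 and 385. The synaptonemal barcodes were chosen on a list that holds Sycp1, Sycp3, Hormad1, Syce1 and Syce3, so their levels of these genes were set by that choice.

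**Figure D3:**
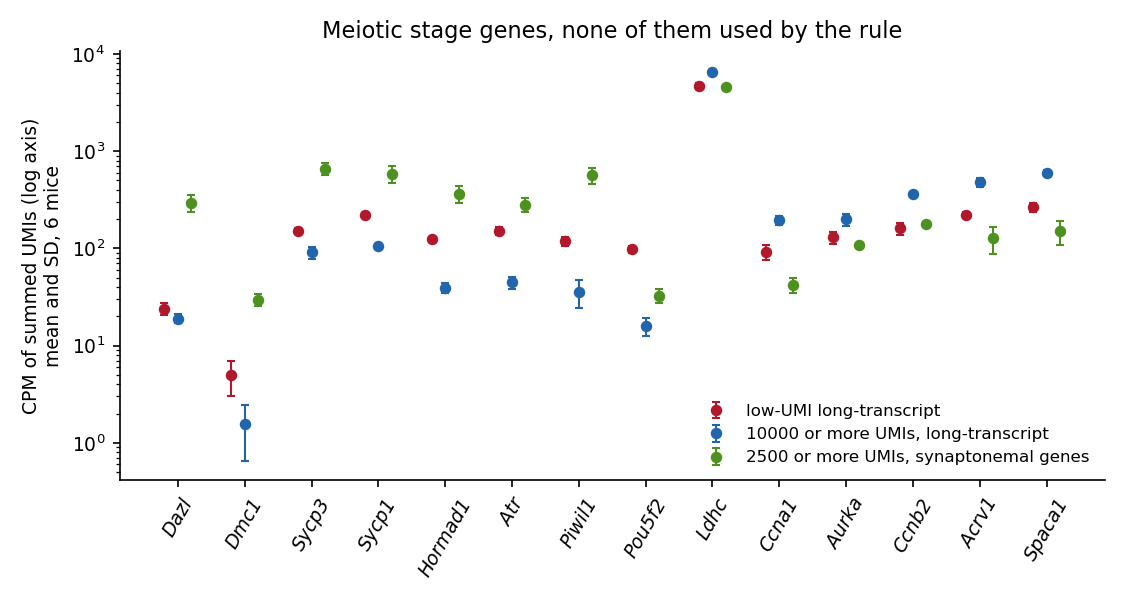
Levels of 14 stage genes (CPM of summed UMIs, log axis; mean and SD of 6 mice) in long-transcript, full-depth and synaptonemal barcodes. The genes are picked examples, and Sycp1, Sycp3 and Hormad1 served to choose the synaptonemal barcodes; Piwil1 lies between the other kinds at 119 CPM, and Pou5f2 is highest of the 3 kinds in long-transcript barcodes at 98.8 CPM.

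Early meiotic genes went in both directions. The leptotene and zygotene list of 10 genes summed to 307 ± 22.9 CPM in long-transcript barcodes, above 204 in full-depth and 169 in other low-UMI barcodes and below 453 in synaptonemal barcodes. Tex15, a protein needed for meiotic recombination and transposon silencing (68.8 kb), made 166 CPM of that sum and stood at 40.1 CPM in other low-UMI barcodes. Brca1, the DNA repair protein (63.2 kb), stood at 109 CPM in long-transcript and 22.0 CPM in other low-UMI barcodes. By contrast Dmc1, the recombinase of early meiotic breaks, stood at 4.95 CPM and Meiob, a meiotic single-stranded DNA-binding protein, at 7.11 CPM in long-transcript barcodes, Stra8 was listed at 0 in all 6 mice, and 10 spermatogonial genes summed to 56.5 ± 2.83 CPM, against 339 ± 59.0 CPM in synaptonemal barcodes. Dazl, a germ-cell RNA-binding protein, stood at 24.0 CPM in long-transcript and 293 CPM in synaptonemal barcodes. Transcripts of elongating spermatids outside the rule summed to 18389 ± 3340 CPM, close to the 19632 ± 2602 CPM of full-depth barcodes. Other low-UMI barcodes, chosen without a spermatid limit, had 51908 ± 3611 CPM.

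Although Ttn and Xirp2 are muscle genes, muscle was not otherwise seen. A list of 16 striated muscle genes summed to 152 ± 20.9 CPM, of which Neb, the 242-kb gene of the thin-filament protein nebulin, made 147 CPM, and 6 of the 16 were listed at 0. Neb stood at 7.18 CPM in full-depth, 62.1 CPM in synaptonemal and 88.3 CPM in other low-UMI barcodes. Somatic testis lists were low as well: 12 Sertoli genes summed to 142 ± 64.6 CPM in long-transcript and 1554 ± 376 CPM in other low-UMI barcodes, 7 endothelial genes to 12.8 CPM and 8 macrophage genes to 24.8 CPM. The Leydig list gave 446 ± 64.2 CPM, of which 284 CPM was Aldh1a1, a retinaldehyde dehydrogenase gene of 151 kb. Aldh1a1 (chr19:20492715-20643465, plus strand) overlaps C730002L08Rik (chr19:20410544-20552330, minus strand), a gene of the rule, so its level is uncertain. By contrast the Leydig hormone Insl3 stood at 7.59 CPM and Star, the steroidogenic cholesterol transporter, at 8.30 CPM. In Leydig barcodes Insl3 stood at 4782 CPM.

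The lower and upper quartiles of depth were 1293 and 1745 UMIs, and 195 barcodes had fewer than 1000. The rule bears on both, since it limits depth from above and a shallow barcode seldom reaches 3 UMIs of the 7 genes. At 500 UMIs after thinning they held a median of 450 genes, with 434 in full-depth, 430 in synaptonemal, 420 in other low-UMI and 393 in Leydig barcodes. Genes of long span gave 19.6 ± 0.405% of UMIs in long-transcript barcodes under 1000 UMIs, 19.7% at 1000 to under 1500, 21.7% at 1500 to under 2000 and 22.8 ± 1.33% at 2000 to under 2500. Ribosomal protein genes gave 3.63%, 3.44%, 2.97% and 2.60% in the same 4 classes.

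Values just inside and just outside the limit of 3 UMIs were close. Long-transcript barcodes with exactly 3 UMIs of the 7 genes (491), which the 0.2% condition restricts to the shallower ones, had 19.0 ± 1.01% of UMIs from genes of long span, and those with 2 (996, left out by the rule and with no such restriction) had 18.8 ± 1.15%. Barcodes with 1 (2111) had 15.2%, those with 0 (18754) had 9.05%, and those with 10 or more (838) had 22.8%. Sycp1 stood at 102 CPM with 0 such UMIs, 133 with 1, 201 with 2, 227 with 3, 224 with 4 to 5, 227 with 6 to 9 and 207 with 10 or more, so within the long-transcript barcodes it did not climb with the long-span share. Median depth moved with these bins, at 1001 UMIs for 0, 1341 for 2, 1259 for 3 and 1731 for 10 or more.

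Mitochondrial RNA varied widely among the long-transcript barcodes. Their median mitochondrial share was 0.202%, the upper quartile 0.877% and the highest value 17.5%. A dividing value of 0.5%, chosen after the distribution was seen, put 244, 326 and 211 barcodes above it in the nicotine mice and 170, 218 and 245 in the control mice, 1414 in all. The richer barcodes had 2.56 ± 0.410% mitochondrial UMIs and the poorer ones 0.138 ± 0.00839%, at similar depth (means of the median 1587 and 1454 UMIs). Long-span shares were alike, at 20.5% in the richer and 21.3% in the poorer, as were synaptonemal sums, at 1268 and 1294 CPM.

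Other transcripts did move with that division, each in the same direction in all 6 mice. The endoplasmic reticulum chaperones Hsp90b1 and Hspa5 stood at 637 ± 112 and 408 ± 58.5 CPM in mitochondria-rich barcodes, and at 275 ± 30.04 and 234 ± 31.5 CPM in mitochondria-poor ones. Plk4, the kinase that starts centriole duplication, stood at 54.9 CPM in the rich and 35.5 CPM in the poor. The vomeronasal receptor gene Vmn2r7, of 160 kb, stood at 13.6 ± 6.73 CPM in the rich and 79.0 ± 24.1 CPM in the poor. The testis transcripts 1700020G17Rik and Gm41225 stood at 65.4 and 45.2 CPM in the rich, and at 243 and 179 CPM in the poor. Sertoli transcripts went with the division too, the list summing to 280 ± 119 CPM in rich and 68.5 ± 33.8 CPM in poor barcodes. The part of Sertoli transcripts in the other differences was not tested.

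Long-transcript barcodes made up a larger part of the nicotine libraries. They were 6.95%, 8.25% and 7.27% of barcodes in nicotine mice, and 5.21%, 6.15% and 5.0% in control mice. Every nicotine mouse was above every control mouse, with means of 7.49 ± 0.679% and 5.45 ± 0.614% (SD, n = 3 each) and a log2 ratio of 0.46. The exact two-sided permutation p was 0.1, the smallest that 3 against 3 mice allow, and 1 after Benjamini-Hochberg adjustment over 10 such tests, so the difference did not pass. The rule was proposed with results of these libraries known, so the share is no independent evidence. Mean UMIs per barcode were 6230, 6788 and 5925 in nicotine libraries and 7386, 7015 and 6799 in control libraries. With every library thinned to the same mean UMIs per barcode and the rule applied again, a check added after seeing the depths, the shares were 6.83%, 8.24% and 7.27% in nicotine mice, and 5.47%, 6.01% and 5.04% in control mice (log2 ratio 0.44, exact p 0.1). Chosen on the synaptonemal list instead, the low-UMI share had a log2 ratio of 0.08 (exact p 0.5). A share of barcodes also depends on how many barcodes of every other kind were recovered and called.

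**Figure D4:**
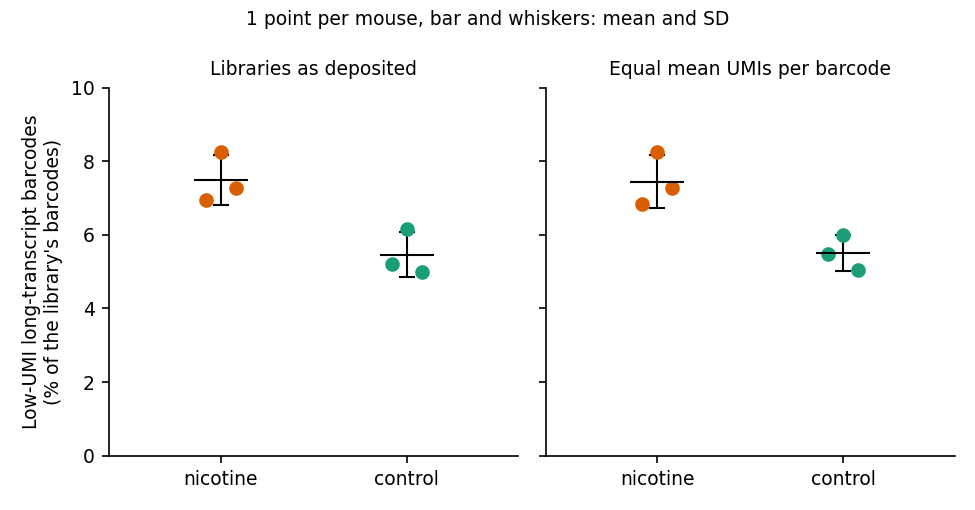
Long-transcript barcodes as a percentage of the barcodes of each library, as deposited (left) and after thinning all libraries to equal mean UMIs per barcode (right); 1 point per mouse, with mean and SD. The nicotine mice lie between 6.83% and 8.25% and the control mice between 5.0% and 6.15%.

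The 9 other measures of these barcodes compared by permutation did not separate the groups. For each deeper barcode that met the same gene conditions at 2500 UMIs or more there were 9.83, 7.05 and 8.85 long-transcript barcodes in nicotine mice, and 7.08, 11.7 and 6.16 in control mice (exact p 1). Genes of long span gave 20.6 ± 0.905% of UMIs in nicotine and 21.3 ± 1.18% in control mice (exact p 0.4), mitochondrial genes 0.984 ± 0.265% and 0.971 ± 0.294% (exact p 1), and X-linked genes 0.772% and 0.774% (exact p 0.9). Median UMIs were 1468 ± 32.2 in nicotine and 1506 ± 123 in control mice (exact p 0.8). Spermatid transcripts outside the rule gave 1.51%, 1.5% and 1.91% in nicotine and 2.30%, 1.68% and 2.14% in control mice (exact p 0.2). All 9 overlapped between the groups, and with 3 mice a group a missed threshold does not show that they were alike.

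Gene by gene, 4 of 11033 genes tested (0.0363%) passed edgeR's quasi-likelihood test at a Benjamini-Hochberg adjusted p under 0.05, and all 4 were lower in nicotine mice. None was higher; at an unadjusted p under 0.05 there were 309 higher and 495 lower. Rbfox1, a splicing factor best known in neurons and muscle that spans 1526 kb, had 53.9, 58.8 and 48.9 CPM in nicotine mice and 95.1, 90.4 and 106 CPM in control mice, a log2 fold change of -0.83 (SE 0.148). Tex35, a testis transcript, had 54.8, 56.7 and 86.9 CPM in nicotine and 123, 127 and 106 CPM in control mice (-0.82, SE 0.157). Ptgds, the prostaglandin D2 synthase, had 15.3, 16.5 and 11.6 CPM in nicotine and 39.4, 73.8 and 29.6 CPM in control mice (-1.69, SE 0.295). Its mean was 11457 CPM in Leydig barcodes and 9.70 CPM in full-depth barcodes. Defb19, a beta-defensin of Sertoli cells, had 31.4, 22.2 and 40.4 CPM in nicotine and 68.2, 55.1 and 97.2 CPM in control mice (-1.22, SE 0.222). The edgeR adjusted p was 0.0366 for each, and the groups did not overlap for any of them. The share of all genes tested without overlap was not counted. The calls depended on the setting. Without barcodes holding 3 or more somatic UMIs the count was 0, as it was with DESeq2 and without nicotine mouse 1, with 781, 334 and 833 genes at an unadjusted p under 0.05. The fold changes stayed similar without the somatic barcodes, at -0.74 for Rbfox1, -0.83 for Tex35, -1.46 for Ptgds and -1.06 for Defb19, with edgeR adjusted p-values of 0.0721 to 0.268. Without nicotine mice 2 and 3 it was 1 and 9, and without control mice 1, 2 and 3 it was 14, 7 and 4.

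Sertoli transcripts moved with the calls. All 6 Sertoli genes that passed the count filter, of 12 listed, were lower in nicotine mice, with a median log2 fold change of -1.18 against 0.00 over all genes tested, and 1 of them (Defb19) passed. Clu, or clusterin, had a log2 fold change of -2.08 (edgeR adjusted p 0.115) and Cst9, a cystatin of Sertoli cells, -1.14 (edgeR adjusted p 0.175). Clu had 6.28, 1.43 and 2.33 CPM in nicotine mice and 10.6, 17.7 and 13.7 CPM in control mice. It met the count filter through the control mice alone, which favoured a lower value in nicotine mice. Cst12 and Ctsl stood at low means too, 14.4 and 11.3 CPM over the 6 mice, so the filter may have favoured lower values there as well. The 6 lower values and their median are therefore a description. Summed over the 12 genes the Sertoli list stood at 114, 63.1 and 90.0 CPM in nicotine mice and at 180, 166 and 238 CPM in control mice, and in the other low-UMI barcodes at 1226, 1378 and 1306 CPM in nicotine and 2214, 1418 and 1784 CPM in control mice. All 3 Leydig genes tested, of 8 listed, were lower in nicotine mice as well and none passed, with a median log2 fold change of -0.28. This too is a description, since the bearing of the count filter on these genes was not tested. The part of Sertoli and Leydig transcripts in the calls, also after barcodes with somatic UMIs were left out, was not tested.

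**Figure D5:**
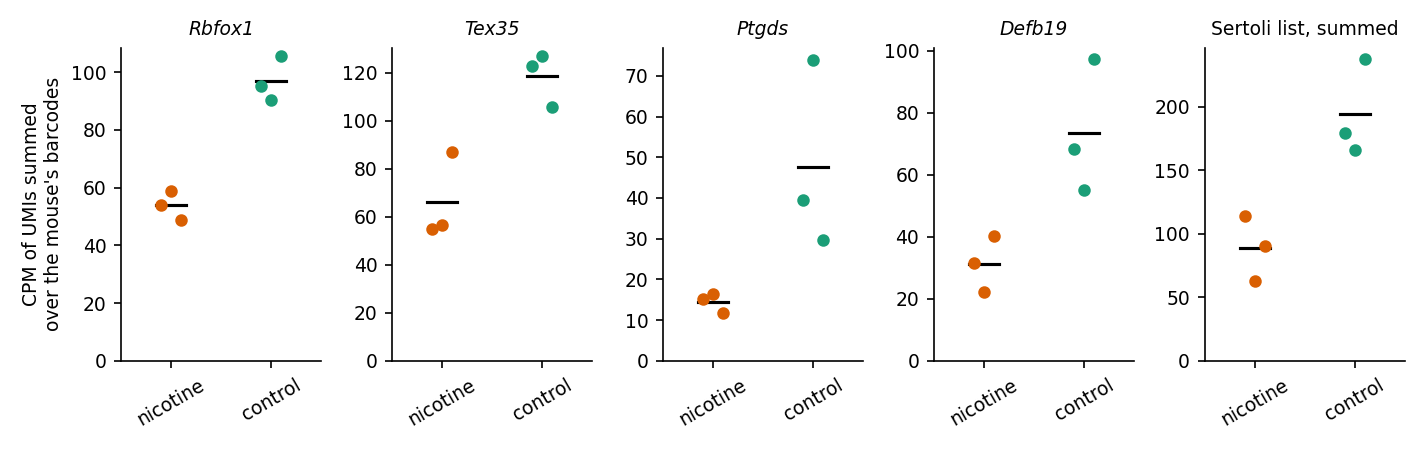
Levels (CPM of UMIs summed over the long-transcript barcodes of a mouse, linear axes from 0) of the 4 genes that passed and of the 12-gene Sertoli list, 1 point per mouse with bars for the means. Nicotine mice lie below control mice in each panel, with Rbfox1 at 48.9 to 58.8 and 90.4 to 106 CPM and the Sertoli list at 63.1 to 114 and 166 to 238 CPM.

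The next 6 genes by p, Cstl1, Tfam, Zfp804b, Scn3b, Clu and Lrrc72, had edgeR adjusted p-values of 0.0735 to 0.115 and were lower in nicotine mice as well. Scn3b had 5.39, 5.02 and 2.33 CPM in nicotine mice and 13.5, 18.7 and 13.7 CPM in control mice. Like Clu it met the count filter through the control mice alone, so its direction was favoured by the filter. Tfam, which packages and transcribes mitochondrial DNA, had a mean of 60.9 ± 3.00 CPM in nicotine and 97.4 ± 7.09 CPM in control mice (log2 fold change -0.66). Of 14 spermatid genes outside the rule 12 had negative values and none passed, Prm2 at -0.50 (edgeR adjusted p 0.154) and Tnp2 at -0.65 (0.257 by the same adjustment) among them. Their median was -0.29, and of all 11033 genes tested 5476 had negative values.

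Meiotic genes gave no call. Over all genes tested 4 of 11033 (0.0363%) passed, so lists of this size would seldom hold a call and nothing is read from its absence. Of 9 synaptonemal genes tested none passed, with a median log2 fold change of 0.02 and a range of -0.37 to 0.29. Sycp1 had 220, 225 and 225 CPM in nicotine mice and 215, 205 and 235 CPM in control mice, and Hormad1 had 133, 127 and 113 CPM in nicotine and 126, 125 and 120 CPM in control mice. None of 17 recombination, 17 piRNA pathway, 12 pachytene, 9 heat shock, 6 apoptosis or 10 antioxidant genes tested passed, their medians lying between -0.08 and 0.16. The 12 diplotene and division genes gave no call either. Their sum was 966, 1057 and 995 CPM in nicotine mice and 940, 927 and 796 CPM in control mice. Many lists were summed and the share of them without overlap was not counted, so nothing is read from this separation. For the 7 genes of the rule, whose summed level the selection restricts in every mouse, the log2 values ran from -0.20 (Xirp2) to 0.07 (Atrnl1), as a description. Of 1751 genes tested that span 100 kb or more, Rbfox1 alone passed, 1105 had negative values, and the median was -0.06. Over all 11033 genes tested 5476 had negative values.

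The 544 deeper barcodes that met the same gene conditions answered whether nicotine mice differed alike at both depths. In them 33 of 6779 genes tested (0.487%) passed edgeR's adjusted threshold, 10 of them mitochondrial, and none was among the 4 calls in long-transcript barcodes. The difference between the nicotine effects at the 2 depths passed for 52 of 10408 genes (0.5%), of which 9 were mitochondrial. For mt-Co1, a subunit of cytochrome oxidase, the log2 fold change was 0.03 in long-transcript and 1.34 in deeper barcodes. Rbfox1 was also among the 52, with a log2 interaction of -1.56 (edgeR adjusted p 0.0128). Its log2 fold change was -0.83 in long-transcript and 0.69 in deeper barcodes (edgeR adjusted p 0.563 in the deeper barcodes).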

How the data were processed

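The authors made the deposited count matrices (UMI counts per gene and barcode) with Cell Ranger 7.2.0 against GRCm38, per the submitters' processing notes; other settings are not given in the sources used here. Barcodes were kept as deposited and selected by the rule in the text; the members, comparison kinds and gene lists were chosen with earlier results of these data known. Gene spans came from the GENCODE annotation of GRCm38, which placed 32235 of 32285 features. UMIs were summed per mouse. Single values per mouse were compared by an exact two-sided permutation test over mice, and genes by edgeR 4.0.16 quasi-likelihood (R 4.3.3, TMM scaling, its default count filter, Benjamini-Hochberg adjustment over all genes tested), a procedure checked on simulated counts. Treatment by depth class (long-transcript barcodes against deeper barcodes meeting the same gene conditions) was fitted with the mouse as a block. Counting intervals are exact binomial at 95%. Named genes are the 10 of smallest p for nicotine against control, since fewer than 6 passed; the 15 highest and 15 lowest ratios to deeper counterparts and to other low-UMI barcodes; the genes of the rule; and the marker lists. The full-depth and synaptonemal kinds, their lists of 15, the genes inside other genes, the 0.5% mitochondrial division and other genes named were chosen after values were seen. Alternatives were DESeq2 1.42.0, RLE scaling, no count filter, other limits of the rule, barcodes with somatic UMIs left out, equal numbers of barcodes, thinning to 500 UMIs, a replicate block and leaving out each mouse. Mice are separate animals, per the labels.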

Additional observations from a re-analysis of the deposited data

Results flagged for a closer look

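Nicotine and control mice differed otherwise in long-transcript barcodes than in their deeper counterparts, the 544 barcodes that met the same gene conditions at 2500 UMIs or more (77, 127 and 95 in nicotine mice, 88, 57 and 100 in control mice). The interaction of treatment and depth class passed edgeR's adjusted threshold for 52 of 10408 genes (0.5%), 49 of them with a lower nicotine effect in long-transcript barcodes. Of 13 mitochondrial genes 9 passed, mt-Co1 with a log2 interaction of -1.29 and mt-Co3 with -1.25. Their own nicotine over control log2 values ran from -0.13 to 0.11 in long-transcript barcodes and from 1.03 to 1.45 in the deeper ones. Mitochondrial genes gave 2.63%, 2.60% and 1.83% of the UMIs of deeper barcodes in nicotine mice and 0.798%, 1.09% and 1.07% in control mice. Among other genes Gm28375 had a log2 interaction of -1.16, Gm16759 -0.91, Gm10754 -0.75 and Cnot2 -0.80. The 52 include 4 genes of the rule (Ttn, Xirp2, Gm11867 and Airn), whose summed level chose the barcodes at both depths, so nothing is read from them. Barcodes above 0.5% mitochondrial UMIs were 74.0%, 85.0% and 64.2% of deeper barcodes in nicotine mice and 37.5%, 40.4% and 34.0% in control mice, and 32.2%, 36.4% and 25.1% of long-transcript barcodes in nicotine and 27.3%, 32.7% and 39.8% in control mice. The part of this composition in the interaction was not tested.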

How the results depend on the processing

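The count of 4 genes called for nicotine against control was 1 with the stricter spermatid limit of 0.75%, 0 without barcodes holding somatic UMIs, 0 with DESeq2, 19 with no count filter and 1 after thinning to 500 UMIs; leaving out a mouse gave 0 to 14. The replicate block gave 29, but the labels do not say that a replicate number pairs mice. Same-number correlations of deviations were 0.0438, 0.0676 and 0.0520, and those of different numbers ran from -0.135 to 0.0776. Deviations from the mean of 3 mice are tied to each other, so these correlations cannot decide whether the numbers pair the mice. The interaction count of 52 was 18 with DESeq2, which gave an adjusted p for 1252 genes, and 16 to 46 with a mouse left out, lowest without control mouse 3. On the log2 scale of nicotine over control, leaving out a mouse gave -0.13 to 0.37 for barcodes per deeper counterpart, -0.085 to 0.030 for median UMIs, 0 to 0.0048 for genes at 500 UMIs, -0.17 to 0.27 for the mitochondrial share, -0.031 to 0.13 for the ribosomal protein share and -0.067 to 0.041 for the X-linked share, which was 0.0012 without somatic barcodes. For the share of barcodes it gave 0.38 to 0.55, and with fewer than 3 mice in a group no such p can go below 0.2. The cause of these changes was not tested. Counting depth limits genes near the count filter.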
